A study of Mus musculus with 49 samples.

Results

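What still differed from uninjured colon in mice given dextran sulfate sodium (DSS) and an antibody to IL-12p40 was measured in 12 of the 26 colon libraries of a series with 49 libraries in all. The libraries were chosen by their titles: 7 from DITRA-like mice that received DSS with an anti-mouse IL-12p40 antibody, and 5 from DITRA-like mice that had water and PBS. Every mouse of both groups carried the DITRA model, on a background that was 75% C57BL/6NTac and 25% 129S6/SvEvTac; DITRA is the human disease in which the antagonist of the IL-36 receptor is lost. Another 6 colon libraries from mice given DSS with PBS and 8 from mice given DSS with an anti-human IL-36R antibody entered the same statistical fit and serve as context. Skin libraries make up the remainder of the series and were not used here. The alleles of the model, the sex and age of the mice, the doses and the days of sampling are not given in the sources used here. The anti-IL-12p40 mice differed from the water mice in DSS and in antibody at once, so what each of these contributed cannot be told apart in this comparison.

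DSS is a sulfated polysaccharide that damages the lining of the colon when it is drunk, and the damage draws neutrophils, monocytes and lymphocytes into the wall. The p40 protein, the product of Il12b, is a subunit of both IL-12, which drives interferon gamma from T and NK cells, and IL-23, which sustains cells that make IL-17 and IL-22. An antibody to p40 therefore acts on both cytokines at the protein level, so that transcripts of Il12b and its partners are no check of the treatment.

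The 12 libraries held 15538456 to 18663357 expected counts and 17726 to 18311 genes above 0. Levels are given as CPM (the counts of a gene relative to the total of its library, after scaling between libraries), which compares 1 gene between libraries and not different genes. The colon epithelial genes Vil1, Cdx1, Krt20 and Slc26a3 and the smooth muscle genes Myh11 and Actg2 were present in all 12 libraries. Nothing in the labels states that samples of a group came from separate mice beyond their different sample numbers, so p-values measure the spread between these samples. Principal components of all colon libraries were computed on the genes that varied most between them. The first held 43.1% of the variance of those genes. On it the anti-IL-12p40 libraries lay at -9.71 to 24.6 and the water libraries at -56.4 to -47.9, without overlap.

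Libraries are numbered within each group in the order of the deposit, and 3 of the 12 stood apart. Water library 4 had 1.84 CPM of Hoxb13, a homeobox gene of the distal hindgut, against 364 to 400 CPM in the other 4 water libraries, and 0.212 CPM of its relative Hoxd13 against 134 to 170 CPM. The same library held 46400 CPM of Muc2, the main secreted mucin, against 2500 to 4100 CPM in the other 4. The anti-IL-12p40 libraries had 140 to 220 CPM of Hoxb13, between water library 4 and the other water libraries, and Hoxd13 was at 10.3 to 34.9 CPM in 5 of them but at 123 and 135 CPM in libraries 6 and 7. Anti-IL-12p40 library 5 held liver transcripts, with 884 CPM of albumin (Alb) against 0.425 to 2.3 CPM in the other 6. Anti-IL-12p40 library 2 held pancreas transcripts, with 103 CPM of the amylase gene Amy2a5 against at most 1.1 CPM in the other 6. The part of these differences in the results was not tested beyond leaving the libraries out, and values without them are given beside results that rest on them. Leaving libraries out does not address the lower Hoxb13 of the anti-IL-12p40 group. Without water library 4, Hoxb13 was called lower in that group (adjusted p = 0.0101), and its part in the other results was not tested.

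**Figure D1:**
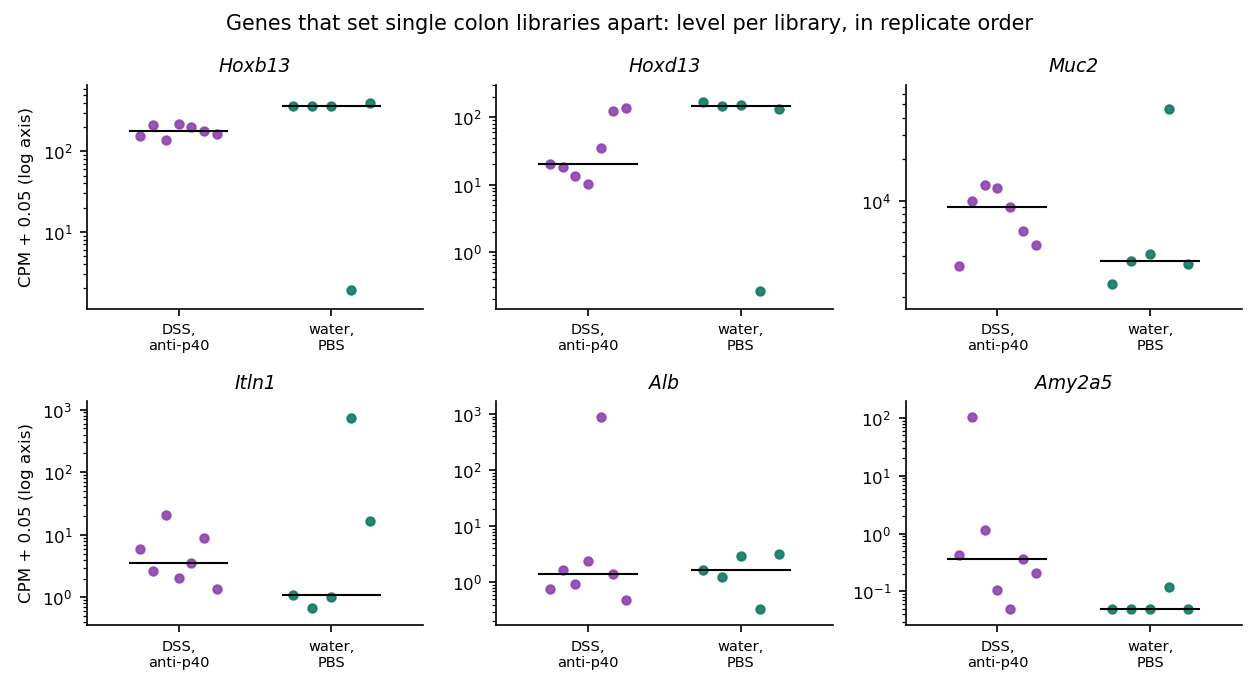
Level of 6 genes in each library (points; CPM plus 0.05, log axis), in replicate order, with the group median as a line; the 7 anti-IL-12p40 DSS libraries are on the left of each panel and the 5 water libraries on the right. Water library 4 lies far below its group for Hoxb13 (1.84 CPM) and Hoxd13 (0.212 CPM) and far above it for Muc2 (46400 CPM) and Itln1 (744 CPM); single anti-IL-12p40 libraries carry Alb (884 CPM) and Amy2a5 (103 CPM).

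In colon from anti-IL-12p40 mice with DSS, most listed genes of immune cells and of interferon gamma and cytokine signalling were higher than in water colon, and 13 of 32 genes of drug and steroid metabolism and 12 of 23 of fatty acid oxidation were lower. Without water library 4, the counts of lower genes in those metabolism lists were 7 of 32 and 8 of 23. Of 15731 genes tested, 2712 differed at an adjusted p under 0.05 (17.2%; edgeR quasi-likelihood test with Benjamini-Hochberg adjustment). Of these, 1705 were higher (10.8% of the genes tested) and 1007 were lower (6.4%). At a change of at least 2-fold the balance was wider, with 1151 genes higher (7.32%) and 181 lower (1.15%). The median log2 fold change over all genes tested was -0.03, which the scaling itself holds near 0, so changes are relative to the bulk of genes. Leaving out the 3 libraries that stood apart gave 1748 higher and 1107 lower genes. In bulk tissue, a change in the number of cells of a type and a change in RNA per cell cannot be told apart, which holds for every cell-type marker given here.

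**Figure D2:**
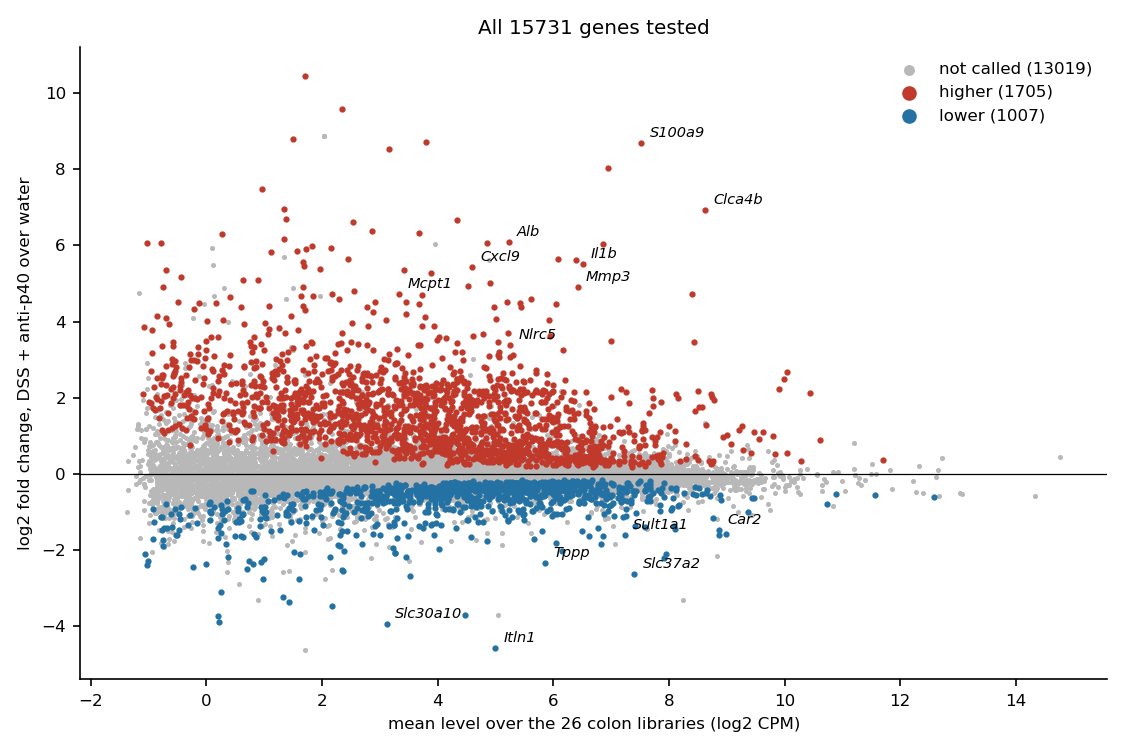
Each point is 1 of the 15731 genes tested, with its mean level over the 26 colon libraries (log2 CPM) on the horizontal axis and the log2 fold change of anti-IL-12p40 DSS over water on the vertical axis. The 1705 genes called higher spread to larger changes than the 1007 called lower; labelled genes are described in the text, except that Itln1 rests on water library 4 and Alb on anti-IL-12p40 library 5.

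Among gene lists, the broadest rise was in genes of interferon gamma response and antigen presentation, in which 24 of 24 members tested were higher (10.8% of all genes were), with a median log2 fold change of 2.10. Genes of fatty acid oxidation were at the other end, with 12 of 23 lower (6.4% of all genes were), or 8 without water library 4. The lists were drawn up with earlier results of these data known, so their counts describe the change and do not test it.

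**Figure D3:**
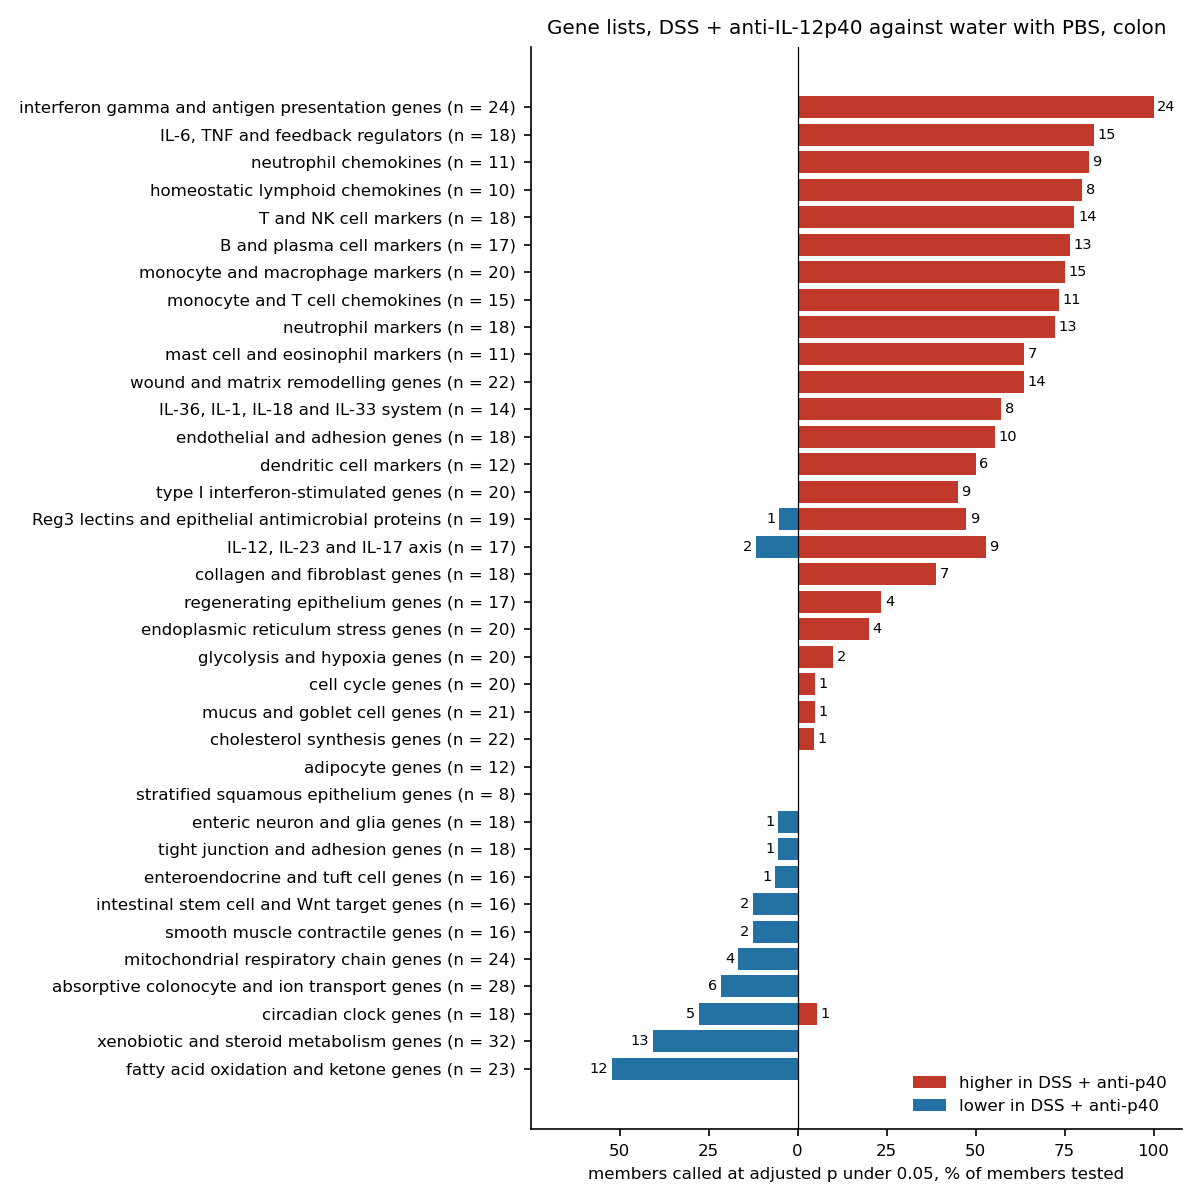
Share of each list's tested members called higher (right, red) or lower (left, blue) in anti-IL-12p40 DSS colon against water colon, as a percentage of the members tested (n in parentheses), with the number of genes beside each bar. Interferon gamma and antigen presentation genes were higher in 24 of 24, and fatty acid oxidation and ketone genes lower in 12 of 23, or 8 without water library 4.

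Interferon gamma signalling switches on the guanylate-binding proteins, the immunity-related GTPases and the presentation of antigens on MHC class I and II. Nlrc5, the transcriptional activator of MHC class I genes (chr8:94434335-94527272, build GRCm38.p6), had 25.7, 32.2 and 88.2 CPM as the lowest, median and highest values in the 7 anti-IL-12p40 libraries, against 5.99, 5.41, 2.51, 5.23 and 4.12 CPM in the 5 water libraries. Every anti-IL-12p40 library lay above every water library, and libraries 2 and 6 were the highest. Its log2 fold change was 3.39 ± 0.553 (SE; 10.5-fold; adjusted p = 0.000173).

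Gbp5, a guanylate-binding protein that acts in inflammasome assembly and defence against intracellular microbes, ranged from 12 to 72.0 CPM with a median of 18.8 CPM in the anti-IL-12p40 libraries. In the water libraries it was at 5.55, 4.84, 4.17, 4.45 and 3.56 CPM. The groups did not overlap, and libraries 2 and 6 again stood at the top. The change was 2.78 ± 0.632 on the log2 scale (SE; adjusted p = 0.00325). Ciita, the activator of MHC class II genes, which was chosen after its values were seen, was at 45.0 to 109 CPM in the anti-IL-12p40 libraries, against 15.2, 16.3, 8.6, 8.91 and 12.5 CPM in the water libraries (log2 fold change 2.46 ± 0.462, adjusted p = 0.000635).

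The GTPase Iigp1 rose by 3.61 ± 0.804 on the log2 scale (adjusted p = 0.00276), with 218 and 171 CPM in anti-IL-12p40 libraries 2 and 6 but 12.9 to 49.1 CPM in the other 5, against 4.7 to 7.49 CPM in the water libraries. Ido1, which degrades tryptophan, showed the same spread: 55.5 and 51.1 CPM in libraries 2 and 6, 2.08 to 7.98 CPM in the other 5, and 0.187 to 4.24 CPM in the water libraries (log2 fold change 3.89 ± 1.12, adjusted p = 0.0175). Of the 24 members of the list, 21 had every anti-IL-12p40 library above every water library (7.53% of all genes tested did). Without the 3 libraries that stood apart, 21 of the 24 were called. Ifng, the gene of interferon gamma itself, was barely detected and did not pass the test: it had 1.62 and 1.85 CPM in libraries 2 and 6 and at most 0.117 CPM in the other 5, against at most 0.0707 CPM in water (adjusted p = 0.112).

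Chemokines that act on CXCR3, the receptor of activated T and NK cells, were also highest in libraries 2 and 6. Cxcl9 ranged from 1.86 to 111 CPM with a median of 11.5 CPM in the anti-IL-12p40 libraries, against 1.05, 0.45, 0.16, 1.48 and 0.749 CPM in the water libraries. The lowest anti-IL-12p40 library was above the highest water library by a small margin, while libraries 2 and 6 were far above it. Its log2 fold change was 5.42 ± 1.25 (adjusted p = 0.00369). Cxcl10 was at 1.48 to 54.3 CPM, against 0.588 to 1.42 CPM in water, and changed by 3.89 ± 0.935 (adjusted p = 0.00508). The monocyte chemokine Ccl2 changed by 3.27 ± 0.573 (adjusted p = 0.000324), and 11 of 15 monocyte and T cell chemokines and their receptors were higher and 0 lower.

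Genes known for their response to type I interferon were higher in 9 of 20 and lower in 0. Zbp1, a sensor of Z-form nucleic acid, reached 27.3 to 102 CPM in the anti-IL-12p40 libraries, against 5.46 to 13.4 CPM in the water libraries, and its log2 fold change was 2.73 ± 0.441 (adjusted p = 0.000161). Oas2, Ifi44 and Isg15 passed with log2 fold changes of 2.50, 2.54 and 1.90, and in all 3 the groups overlapped. Oas2 did not pass without water library 1 or 2 (adjusted p = 0.0536 and 0.0504), and Isg15 did not pass when any 1 of 8 libraries was left out (adjusted p = 0.0504 to 0.12). The count of 9 was 5 without water library 1 and 4 without water library 2. Without water library 4, which held 10.7 CPM of Oas2 against 1.54 to 3.15 CPM in the other 4, 15 of the 20 passed.

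Promoters of 3 of these genes are shown because the members rose together and because their elements can be read directly. The windows run from 250 bases before to 50 bases after the annotated gene start (RefSeq, GRCm38.p6): Gbp5 at chr3:142496684-142496983 on the plus strand, Igtp at chr11:58199306-58199605 on the plus strand, and Cxcl10 at chr5:92348840-92349139 on the minus strand. Capitals mark the interferon-stimulated response element, searched as GAAANNGAAA, and the gamma-activated site, searched as TTCNNNGAA, both on either strand; no match of one overlaps a match of the other in these windows. Igtp, an immunity-related GTPase, was chosen for its promoter after its values were seen.
Gbp5: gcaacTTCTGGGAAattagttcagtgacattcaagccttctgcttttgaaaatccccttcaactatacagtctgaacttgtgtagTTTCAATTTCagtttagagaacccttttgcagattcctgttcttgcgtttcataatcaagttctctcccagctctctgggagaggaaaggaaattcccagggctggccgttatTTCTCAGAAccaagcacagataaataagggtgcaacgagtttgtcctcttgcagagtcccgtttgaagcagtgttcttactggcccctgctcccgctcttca
Igtp: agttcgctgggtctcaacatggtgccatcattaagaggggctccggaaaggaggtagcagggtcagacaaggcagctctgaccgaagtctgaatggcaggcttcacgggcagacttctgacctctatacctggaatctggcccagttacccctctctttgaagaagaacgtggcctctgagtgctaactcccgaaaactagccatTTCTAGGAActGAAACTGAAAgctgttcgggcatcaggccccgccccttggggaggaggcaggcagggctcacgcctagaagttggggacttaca
Cxcl10: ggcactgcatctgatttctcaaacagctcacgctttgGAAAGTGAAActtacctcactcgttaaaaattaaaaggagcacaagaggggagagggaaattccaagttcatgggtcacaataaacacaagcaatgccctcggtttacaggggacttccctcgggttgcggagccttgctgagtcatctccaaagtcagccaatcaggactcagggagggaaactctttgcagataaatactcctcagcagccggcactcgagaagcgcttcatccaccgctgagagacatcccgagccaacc
In Gbp5 the response element starts 165 bases before the gene start, with gamma-activated sites 245 and 52 bases before it. In Igtp the elements lie 34 and 45 bases before the start, side by side, and in Cxcl10 the response element lies 213 bases before. Igtp was at 17.5 to 139 CPM in the anti-IL-12p40 libraries, against 10.1 to 14.7 CPM in the water libraries, without overlap (log2 fold change 2.13 ± 0.594, adjusted p = 0.0145). Of the interferon gamma and antigen presentation list, 15 genes with 18 windows matched the promoter table; 6 of the 18 windows held the response element and 5 held the gamma-activated site. Over all 32851 windows of the table, 3.44% held the response element and 8.3% the gamma-activated site. A match describes letters in a window and shows no binding.

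On the axis that the antibody addresses, 9 of 17 tested genes of IL-12, IL-23 and IL-17 were higher than in water and 2 were lower. Il12b, which encodes p40, had a lowest value of 0.492 CPM, a median of 0.69 CPM and a highest of 1.62 CPM in the anti-IL-12p40 libraries, against 0.0617, 0.113, 0.107, 0.212 and 0.0624 CPM in the water libraries. All 7 lay above all 5, at low levels, and the log2 fold change was 2.84 ± 0.679 (adjusted p = 0.00495). Il12a, which encodes the partner of p40 in IL-12, was at 0.517 to 1.54 CPM, against 0.212 to 0.617 CPM in water, and did not pass (adjusted p = 0.136). Il23a, the partner in IL-23, was too low to be tested, at 0.219 to 0.493 CPM in the anti-IL-12p40 libraries and 0.283 to 0.617 CPM in the water libraries.

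The cytokines made downstream of IL-23 were detected at low levels. The calls of 2 of the 3 lay near the threshold and were lost when single libraries were left out. Il17a was at 0.125 to 0.956 CPM in the anti-IL-12p40 libraries, against 0 CPM in 4 water libraries and 0.0707 CPM in the other (adjusted p = 0.0256, and 0.0568 to 0.0604 without water library 1, 2, 3 or 5). Il17f was at 0.0581 to 1.32 CPM, against 0.0563 to 0.107 CPM in water, with overlap (adjusted p = 0.0343, and 0.051 to 0.0734 when any 1 of 9 libraries was left out, each water library among them). Il22, which acts on epithelial cells, was at 0.0581 to 3.67 CPM, against 0 to 0.0617 CPM in water, and library 4 was the highest (adjusted p = 0.00671).

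Among the 2 members that fell was Il17re, the epithelial receptor chain for IL-17C. It fell by 0.60 on the log2 scale (adjusted p = 0.0114, and 0.0505 without water library 5), and every anti-IL-12p40 library was below every water library.

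Of the IL-36, IL-1, IL-18 and IL-33 system, 8 of 14 tested genes were higher and 0 lower. Il1b, which encodes the main secreted IL-1, had 10.4, 28.9 and 116 CPM as lowest, median and highest in the anti-IL-12p40 libraries, against 1.17, 1.07, 0.534, 1.7 and 0.562 CPM in the water libraries. The groups were well separated, with libraries 6 and 7 the highest at 116 and 96.7 CPM, and the log2 fold change was 5.51 ± 0.91 (45.6-fold; adjusted p = 0.00018). Il1a changed by 5.35 ± 1.18 (adjusted p = 0.00263), Il1rl1, the receptor of IL-33, by 3.21 ± 0.584 (adjusted p = 0.00047), and the decoy receptor Il1r2 by 3.11 ± 0.689 (adjusted p = 0.00265). Il1rl2, the mouse gene of the IL-36 receptor, was at 0.352 to 1.33 CPM, against 0.125 to 0.778 CPM in water, and did not pass (adjusted p = 0.112), but passed without the 3 libraries that stood apart (log2 fold change 1.79, adjusted p = 0.0263). Of the IL-36 ligands, Il1f9 was at 1.01 to 1.88 CPM, against 0.901 to 1.66 CPM in water (adjusted p = 0.673), and Il1f6 and Il1f8 were listed at 0 in every library, as was the antagonist Il1f5. The alleles of the model are not given. For the IL-36 receptor, ligands and antagonist, a low count from a changed allele and one from low expression therefore cannot be told apart.

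IL-6 and TNF family cytokines and their feedback regulators were higher in 15 of 18 and lower in 0. Socs3, the inhibitor induced by STAT3, was at 35.4, 70.1 and 102 CPM (lowest, median and highest) in the anti-IL-12p40 libraries, against 8.95, 8.9, 6.09, 7.28 and 7.8 CPM in the water libraries. It was high in all 7 and even among the water libraries, and its log2 fold change was 3.24 ± 0.395 (9.44-fold; adjusted p = 2.72e-05). Osm, the gene of oncostatin M, changed by 3.87 ± 0.745 (adjusted p = 0.000761), Il11 by 3.39 ± 0.729 (adjusted p = 0.00201) and Tnf by 2.72 ± 0.492 (adjusted p = 0.000443). Il6 was low, at 0.0587 to 3.08 CPM against 0 to 0.113 CPM in water, with overlap (adjusted p = 0.00538).

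Neutrophil genes showed the largest median changes of any list. S100a9 (chr3:90692630-90695721), which encodes a subunit of calprotectin, had 6.34, 30.5 and 122 CPM as lowest, median and highest in the anti-IL-12p40 libraries. In the water libraries it was at 0.0617, 0.225, 0.16, 0 and 0.125 CPM, that is, a handful of reads at most. All 7 were far above all 5, and libraries 3 and 5 were the lowest of the 7. The log2 fold change was 8.69 ± 1.26 (adjusted p = 6.46e-05); its partner S100a8 changed by 8.02 ± 1.31 (adjusted p = 0.000175). Of 18 neutrophil markers, 13 were higher and 0 lower, with a median log2 fold change of 4.71, or 4.63 with the member that was at 0 in every water library set to its lower bound. The summed level of the 18 was 68.7 to 445 CPM in the anti-IL-12p40 libraries, against 8.7 to 86.7 CPM in the water libraries, which overlapped.

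Chemokines that call neutrophils through CXCR2, with Il1b and other members of the list, were higher in 9 of 11. Cxcl2 was at 0.232 to 13.3 CPM with a median of 2.12 CPM in the anti-IL-12p40 libraries, against 0, 0.169, 0.0534, 0 and 0 CPM in the water libraries. Library 3 was close to water and library 6 was the highest (adjusted p = 0.00303). Cxcl1, chosen after its values were seen, changed by 4.51 ± 0.715 (adjusted p = 0.000142), with 2.21 to 16.6 CPM against 0.141 to 0.555 CPM in water and no overlap.

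Promoters of Cxcl2, Cxcl1 and Il6 are given for the element that NF-kB, the factor downstream of the IL-1, IL-36 and TNF receptors, is known to bind. The windows are Cxcl2 at chr5:90903649-90903948 on the plus strand, Cxcl1 at chr5:90890995-90891294 on the plus strand, and Il6 at chr5:30012864-30013163 on the plus strand (RefSeq, GRCm38.p6, the same window as above). Capitals mark GGGANNNNCC on either strand, where matches that overlap are joined.
Cxcl2: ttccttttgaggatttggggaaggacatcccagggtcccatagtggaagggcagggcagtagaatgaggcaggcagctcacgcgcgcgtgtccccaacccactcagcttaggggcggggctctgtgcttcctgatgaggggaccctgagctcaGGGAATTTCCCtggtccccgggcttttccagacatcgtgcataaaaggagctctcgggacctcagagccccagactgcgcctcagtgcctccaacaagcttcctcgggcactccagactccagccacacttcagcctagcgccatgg
Cxcl1: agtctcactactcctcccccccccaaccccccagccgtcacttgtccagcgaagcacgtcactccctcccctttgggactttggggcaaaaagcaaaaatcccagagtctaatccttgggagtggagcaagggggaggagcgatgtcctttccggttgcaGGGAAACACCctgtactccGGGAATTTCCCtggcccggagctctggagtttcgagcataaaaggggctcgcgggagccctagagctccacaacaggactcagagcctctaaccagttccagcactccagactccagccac
Il6: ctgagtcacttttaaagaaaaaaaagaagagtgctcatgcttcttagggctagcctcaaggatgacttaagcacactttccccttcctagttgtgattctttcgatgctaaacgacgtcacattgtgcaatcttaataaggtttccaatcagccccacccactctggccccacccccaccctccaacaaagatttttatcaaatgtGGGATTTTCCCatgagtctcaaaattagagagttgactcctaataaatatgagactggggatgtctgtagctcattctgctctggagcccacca
The joined pair of matches in Cxcl2 starts 97 bases before the gene start, that of Cxcl1 starts 71 bases before with another match at 90, and that of Il6 starts 44 bases before. The element was in 4 of 8 windows of neutrophil chemokines and 11 of 18 windows of the IL-6 and TNF list, against 20.7% of all 32851 windows. These letters are loose, so 1 window in several holds them.

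Most markers of lymphocytes were higher. Foxp3, the factor of regulatory T cells, was at 2.81, 4.48 and 5.49 CPM (lowest, median and highest) in the anti-IL-12p40 libraries, against 0.494, 0.338, 0.32, 0.848 and 0.499 CPM in the water libraries. The groups were far apart, and the log2 fold change was 3.09 ± 0.444 (8.5-fold; adjusted p = 6.24e-05). Ctla4, an inhibitory receptor of activated and regulatory T cells, changed by 3.40 ± 0.541 (adjusted p = 0.000143), and the granzyme genes Gzmb and Gzma by 3.04 ± 0.699 and 3.24 ± 0.995 (adjusted p = 0.00353 and 0.0261). Of 18 T and NK cell markers, 14 were higher and 0 lower, with a summed level of 81.3 to 140 CPM in the anti-IL-12p40 libraries, against 24.4 to 37.9 CPM in the water libraries. Without water library 2 or 3, 9 of the 18 were called, and Gzma did not pass without water library 1, 2, 3 or 5 or anti-IL-12p40 library 6 (adjusted p = 0.0639 to 0.0695).

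Most genes of the lymphoid chemokine list were higher as well. Ccr7, the receptor that takes lymphocytes and dendritic cells to lymphoid tissue, was at 6.46, 7.73 and 11.5 CPM (lowest, median and highest), against 1.85, 1.86, 0.801, 0.707 and 2.06 CPM in water, without overlap. Its change was 2.51 ± 0.461 (adjusted p = 0.000502). Its ligand Ccl19 changed by 2.57 ± 0.485 (adjusted p = 0.000642), Ccr6 by 2.68 ± 0.48 (adjusted p = 0.00039) and Cxcr5, the receptor that guides cells into B cell follicles, by 2.27 ± 0.512 (adjusted p = 0.00307). Of 10 homeostatic lymphoid chemokines and receptors, 8 were higher and 0 lower.

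B cell and plasma cell markers were higher in 13 of 17 and lower in 0. Mzb1, a chaperone of antibody-secreting cells, was at 22.6, 37.8 and 51.4 CPM (lowest, median and highest), against 7.22, 7.26, 2.88, 8.41 and 4.68 CPM in the water libraries. No anti-IL-12p40 library came down to the water range (log2 fold change 2.65 ± 0.518, adjusted p = 0.00086). The B cell genes Ms4a1 and Cd22 changed by 2.47 ± 0.617 and 2.45 ± 0.499 (adjusted p = 0.00692 and 0.00124), and Pou2af1, a B cell coactivator, by 2.63 ± 0.433 (adjusted p = 0.000175).

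Mucosal mast cell genes were also raised. Mcpt1, a mast cell protease, was at 61.4, 8.43, 6.22, 18.7, 4.17, 2.9 and 9.08 CPM in anti-IL-12p40 libraries 1 to 7, against 1.11, 0.788, 0.16, 0.495 and 0.437 CPM in the water libraries. Library 1 was several times above the rest of its group, and still the other 6 were all above water (log2 fold change 4.72 ± 0.857, adjusted p = 0.000451). Mcpt2 changed by 4.71 ± 0.836 (adjusted p = 0.000358), and Ms4a2, a chain of the IgE receptor, was at 0.349 to 1.91 CPM, against 0 CPM in 4 water libraries and 0.0624 CPM in the other (adjusted p = 3.63e-05). Of 11 mast cell and eosinophil markers, 7 were higher and 0 lower. Their summed level overlapped, at 89.3 to 151 CPM against 70.9 to 224 CPM in water.

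Monocyte and macrophage markers were higher in 15 of 20 and lower in 0. Ccr2, the receptor by which monocytes leave the marrow, was at 18.5, 29.8 and 56.7 CPM (lowest, median and highest), against 6.97, 7.55, 7.05, 5.58 and 3.93 CPM in water, without overlap (log2 fold change 2.48 ± 0.408, adjusted p = 0.000179). Fcgr1, an activating receptor for IgG, changed by 2.79 ± 0.421 (adjusted p = 9.2e-05) and Ly6c2 by 2.49 ± 0.513 (adjusted p = 0.00138). Dendritic cell markers were higher in 6 of 12, among them Flt3 with 1.60 ± 0.297 (adjusted p = 0.000566) and the chemokine Ccl22 with 2.62 ± 0.4 (adjusted p = 0.000101).

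Genes of vessel walls and of wound repair were higher in many members. Madcam1, the address molecule of gut vessels for lymphocytes, was at 9.98, 13.8 and 22 CPM (lowest, median and highest) in the anti-IL-12p40 libraries, against 2.53, 1.75, 1.07, 2.55 and 3.18 CPM in water. The groups were well apart (log2 fold change 2.67 ± 0.352, adjusted p = 2.98e-05). Selp and Sele, the selectins on which leukocytes roll, changed by 3.08 ± 0.589 and 4.90 ± 0.935 (adjusted p = 0.000721 and 0.00071), and 10 of 18 endothelial and adhesion genes were higher and 0 lower. Leaving out water library 2, 3 or 5 or anti-IL-12p40 library 7 gave 6.

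Mmp3, a stromal protease that cuts matrix proteins and activates other proteases, was at 20.6, 41.2 and 112 CPM (lowest, median and highest) in the anti-IL-12p40 libraries, against 2.53, 1.91, 1.66, 0.778 and 1.81 CPM in the water libraries. Even the lowest of the 7 was several times the highest water library, and libraries 1 and 7 were the highest (log2 fold change 4.90 ± 0.633, 29.8-fold; adjusted p = 2.92e-05). Mmp10 changed by 4.51 ± 0.725 (adjusted p = 0.000155) and Spp1, the gene of osteopontin, by 4.38 ± 0.936 (adjusted p = 0.00189); 14 of 22 wound and matrix remodelling genes were higher and 0 lower. Collagen and fibroblast genes were higher in 7 of 18, but in 1 to 4 without water library 1, 4 or 5 or anti-IL-12p40 library 1, 6 or 7. Col1a2 changed by 0.99 ± 0.291 (adjusted p = 0.0203, but 0.0557 without water library 5 and 0.0565 without anti-IL-12p40 library 7).

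Genes of epithelial defence were among those higher, as was Clca4b, which was named among the largest rises and not from that list. Clca4b (chr3:144910921-144932529), a secreted protein of the calcium-activated chloride channel regulator family, had 20.7, 519 and 747 CPM as lowest, median and highest in the anti-IL-12p40 libraries, against 3.58, 2.98, 3.31, 5.8 and 1.87 CPM in water. Libraries 3 and 5 were low, at 20.7 and 92.2 CPM, and the other 5 were at 332 CPM or more; all 7 were above water (log2 fold change 6.92 ± 0.991, 121-fold; adjusted p = 5.95e-05). Nos2, the inducible nitric oxide synthase, was at 15.9, 55.3 and 274 CPM (lowest, median and highest), against 2.16, 1.41, 1.28, 2.33 and 1.06 CPM in water, without overlap (log2 fold change 5.61 ± 0.902, adjusted p = 0.000156).

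Duoxa2, the maturation factor of the hydrogen peroxide-producing oxidase DUOX2, was even across libraries at 44.0, 61.2 and 67.8 CPM (lowest, median and highest), against 9.07, 6.93, 5.29, 12 and 6.05 CPM in water. It was chosen after its values were seen (log2 fold change 2.83 ± 0.34, adjusted p = 2.72e-05). Saa3, Lcn2 and Slpi, which bind lipids, bacterial siderophores and proteases, changed by 6.03 ± 0.997, 4.03 ± 0.712 and 3.48 ± 0.465 (adjusted p = 0.000181, 0.000344 and 3.55e-05). Of 19 Reg3 lectins and antimicrobial proteins, 9 were higher and 1 lower, or 2 lower without water library 1, 2 or 3 or anti-IL-12p40 library 2 or 5; the lower one was Itln1, with 1.33 to 20.4 CPM against 744 CPM in water library 4 and 0.619 to 16.7 CPM in the other water libraries, and without water library 4 its log2 fold change turned to 0.40. Reg3b and Reg3g, bactericidal lectins, did not pass: Reg3g was at 1.39 to 22.2 CPM, against 27.1 CPM in water library 4 and 0 to 0.282 CPM in the other 4 (adjusted p = 0.7, and 0.0385 without library 4).

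Of 17 regenerating epithelium genes, 4 were higher and 0 lower, with 2 higher without water library 3 or 5. Sprr1a, a proline-rich protein of stressed epithelium, was at 9.45 to 15.2 CPM, against 1.01 to 1.31 CPM in 4 water libraries and 7.28 CPM in water library 4 (log2 fold change 2.39 ± 0.461, adjusted p = 0.00078). Ly6a, a marker of the fetal-like state of repairing crypts, changed by 1.76 ± 0.337 (adjusted p = 0.000749), and Clu by 1.13 ± 0.347 (adjusted p = 0.0263, and 0.0519 to 0.0624 without water library 3, 4 or 5 or anti-IL-12p40 library 1).

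The genes that were lower included members of the metabolism and transport lists. Xenobiotic and steroid metabolism genes were lower in 13 of 32 and higher in 0, with a median log2 fold change of -0.90. Sult1a1, a sulfotransferase of phenols and drugs, had 43.7, 95.0 and 170 CPM as lowest, median and highest in the anti-IL-12p40 libraries, against 308, 270, 291, 397 and 420 CPM in the water libraries. All 7 were below all 5 (log2 fold change -1.61 ± 0.375, adjusted p = 0.00384). Gstm1, a glutathione transferase, and Abcb1a, the drug efflux pump P-glycoprotein, both chosen after their values were seen, changed by -1.11 ± 0.247 and -1.16 ± 0.296 (adjusted p = 0.00268 and 0.00784).

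Part of this list rested on water library 4. Ugt1a1, which conjugates bilirubin, was at 160 CPM in that library and 3.9 to 7.36 CPM in the other 4, with 1.48 to 15.1 CPM in the anti-IL-12p40 libraries; the log2 fold change of -2.68 became 0.04 without the library. Without it Cyp4b1 was at -0.34 and Aldh1a1, a retinaldehyde dehydrogenase, at -0.64 on the log2 scale, and neither then passed (adjusted p = 0.591 and 0.15). Without water library 4, 7 of the 32 were lower; without all 3 libraries that stood apart, 8 were.

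Fatty acid oxidation supplies colonocytes with energy from butyrate and longer chains. Ppara, the nuclear receptor that switches on these genes, was at 9.99, 11.9 and 17.9 CPM (lowest, median and highest), against 23.5, 20, 23, 70.3 and 27.1 CPM in water. No library of one group reached into the other (log2 fold change -1.35 ± 0.312, adjusted p = 0.00375). Acadm, the medium-chain acyl-CoA dehydrogenase, chosen after its values were seen, was at 78.5 to 124 CPM, against 165, 178, 173, 158 and 153 CPM in water, so that water library 4 was not apart (log2 fold change -0.76 ± 0.161, adjusted p = 0.00184). Of 23 members, 12 were lower and 0 higher, and 8 were lower without water library 4. Respiratory chain genes were lower in 4 of 24, by at most 0.54 on the log2 scale (Cox4i1, adjusted p = 0.0321). That count depended on single libraries: it was 11 without anti-IL-12p40 library 2, 2 without anti-IL-12p40 library 1, 6 or 7 and 1 without water library 5. Cox4i1 did not pass without water library 4 or 5 or anti-IL-12p40 library 1, 6 or 7 (adjusted p = 0.0519 to 0.114).

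Ion and nutrient transport genes of absorptive colonocytes were lower in 6 of 28 and higher in 0. Car2, a carbonic anhydrase that feeds bicarbonate and proton exchange, was at 197, 376 and 422 CPM (lowest, median and highest), against 1100, 885, 944, 802 and 963 CPM in the water libraries. Every anti-IL-12p40 library was at little more than 400 CPM or less, and every water library above 800 CPM (log2 fold change -1.47 ± 0.416, adjusted p = 0.0164). Slc26a3, the chloride-bicarbonate exchanger of the apical membrane, changed by -1.57 ± 0.534 (adjusted p = 0.0431), which did not pass when any 1 of 9 libraries was left out (adjusted p = 0.0581 to 0.105). The phosphate carrier Slc20a1 changed by -2.10 ± 0.46 (adjusted p = 0.00238), with 76.1 CPM in water library 4 against 543 to 888 CPM in the other 4.

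Slc30a10 and Tppp fell without any overlap between groups. Slc30a10 (chr1:185454848-185468762), a manganese exporter, was at 0.159, 1.75 and 6.98 CPM (lowest, median and highest), against 41.7, 39.8, 21.7, 17.7 and 33.0 CPM in water (log2 fold change -3.95 ± 0.906, adjusted p = 0.00352). Tppp (chr13:74009419-74035753), a protein that promotes tubulin polymerization, was at 14.3, 30.6 and 47.8 CPM, against 171, 153, 167, 146 and 124 CPM in water (log2 fold change -2.34 ± 0.287, adjusted p = 2.72e-05). Water library 4 lay with its group in Tppp and at the lower end in Slc30a10. In contrast, the falls of Osr2 and Hkdc1 rested on that library, which had 44.1 and 70.3 CPM against at most 1.11 and 5.13 CPM in the other 4; without it their log2 fold changes were 0.54 and -0.76 (adjusted p = 0.617 and 0.454).

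Clock genes were lower in 5 of 18, or 3 without water library 1, and higher in 1. Arntl, which encodes BMAL1, was at 41.6 to 59.1 CPM, against 91.3, 87.8, 87.3, 64.3 and 63.0 CPM in water, and the groups did not overlap (log2 fold change -0.61 ± 0.16, adjusted p = 0.00927). Bhlhe41, a repressor in the clock, was the gene that rose, at 4.06 to 11.7 CPM against 1.6 to 2.9 CPM in water (log2 fold change 1.89 ± 0.353, adjusted p = 0.000594). The hour of sampling is not given in the sources used here, and its part in these values was not tested.

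Several lists showed few calls, and most of those calls were lost when 1 library or another was left out. Of all genes tested, 10.8% were higher and 6.4% lower, and counts of 1 or 2 members are to be read beside those shares. Mucus and goblet cell genes were higher in 1 of 21 (Spink4) and lower in 0, cell cycle genes higher in 1 of 20, cholesterol synthesis genes higher in 1 of 22 and glycolysis genes higher in 2 of 20. Stem cell and Wnt target genes were lower in 2 of 16, Ascl2 and Ephb3, and tight junction genes in 1 of 18, Ocln, which fell by 0.76 on the log2 scale (adjusted p = 0.00814). Endoplasmic reticulum stress genes were higher in 4 of 20, with log2 fold changes of 0.44 to 0.78, and in 0 to 6 with 1 library left out. Smooth muscle genes were lower in 2 of 16 (Mylk and Myl9) and in 0 without water library 4. Adipocyte genes, squamous epithelium genes and red blood cell genes had 0 calls of 12, 8 and 4 tested, and enteric glia and tuft cell lists had 1 call each (S100b and Avil). Without water library 4, Spink4, S100b and Avil did not pass (adjusted p = 0.0944, 0.0874 and 0.226); nor did they when any 1 of 8, 6 and 5 other libraries was left out. Ascl2 did not pass when any 1 of 9 libraries was left out and Ephb3 when any 1 of 3 was left out. The counts for cell cycle and cholesterol synthesis genes were 0 to 3 with 1 library left out. Skeletal muscle genes had 1 call of 7, Ckm, which did not pass without water library 4 (adjusted p = 0.267).

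For context, the same genes were set beside those in mice given DSS with PBS, which share the water libraries with the comparison above, so that no overlap of calls is given. In DSS with PBS, 5073 genes differed from water (32.2%), 2765 higher (17.6%) and 2308 lower (14.7%); without PBS libraries 5 and 6, which lay apart at 61.01 and 69.37 on the first principal component, 2976 did. Interferon gamma and antigen presentation genes had a median log2 fold change of 2.10 in the anti-IL-12p40 group and 2.24 in DSS with PBS. Neutrophil chemokines had medians of 4.67 with the antibody and 8.31 without, and neutrophil markers 4.71 and 7.37. Without PBS libraries 5 and 6 the DSS with PBS medians were 6.36 and 6.47. The widest gap of any list was in squamous epithelium genes, with a median of 6.84 in DSS with PBS and a lower one with the antibody. Without those libraries the DSS with PBS median of that list was 0.87, over the 6 members then tested. Lymphoid chemokines had 2.11 and 1.93, B and plasma cell markers 2.25 and 2.15, and xenobiotic metabolism genes -0.90 and -1.32.

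**Figure D4:**
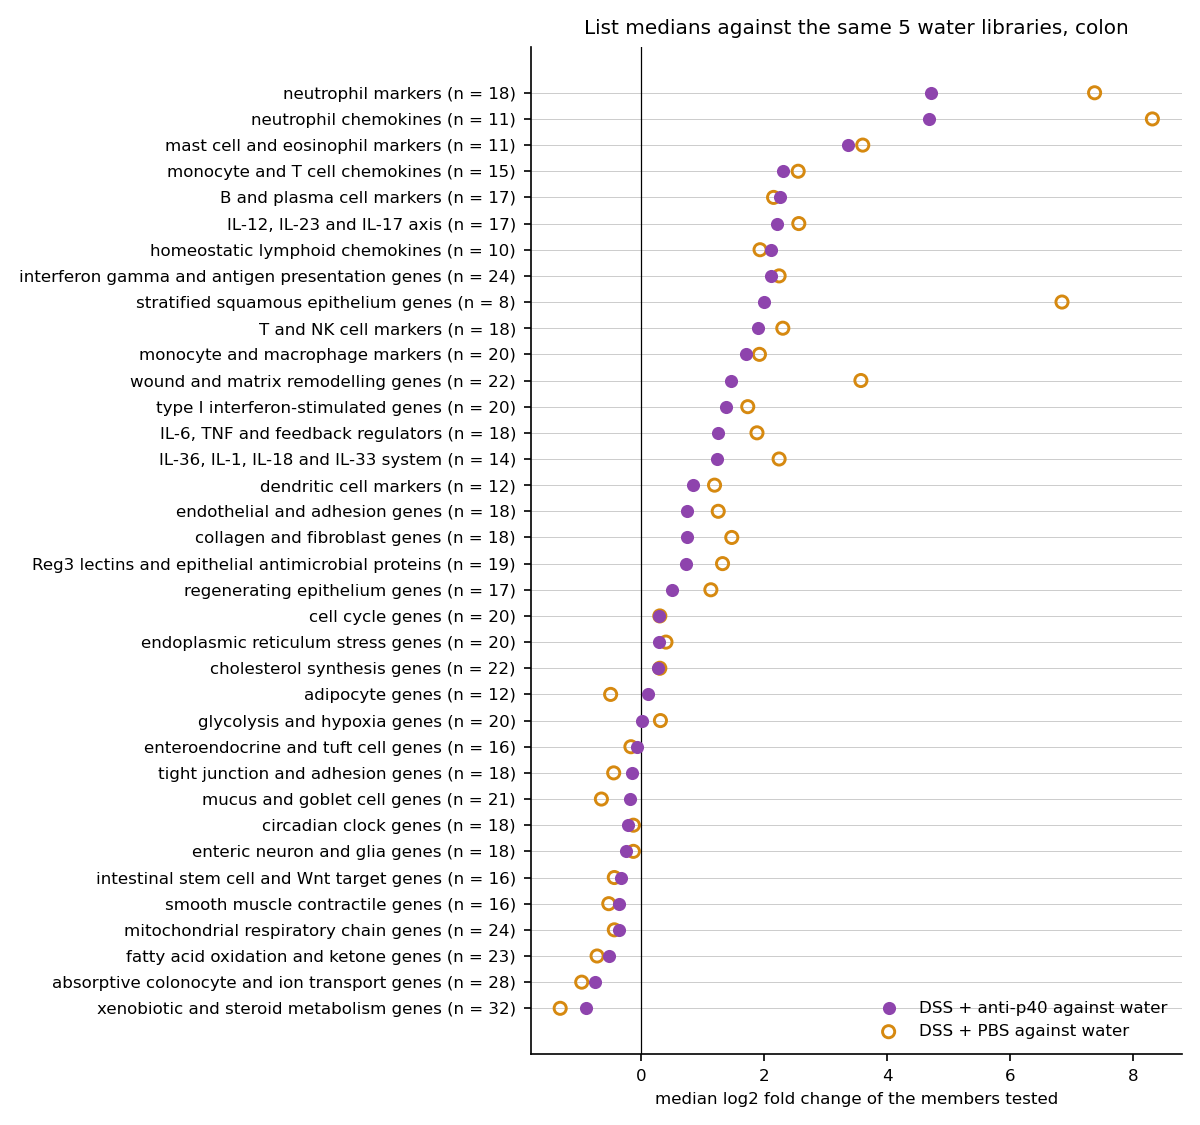
Median log2 fold change against the same 5 water libraries for the tested members of each list (n in parentheses), in anti-IL-12p40 DSS colon (filled) and in DSS with PBS colon (open). The pairs lie far apart for neutrophil chemokines (4.67 and 8.31), neutrophil markers (4.71 and 7.37) and wound genes (1.46 and 3.57). They lie close together for interferon gamma genes (2.10 and 2.24). Without PBS libraries 5 and 6 these open values would be 6.36, 6.47, 2.80 and 2.08. The widest pair is that of squamous epithelium genes, with an open value of 6.84, or 0.87 without those libraries.

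The direct test between the DSS groups called 181 genes (1.15%), of which 178 were lower with the antibody (1.13%) and 3 higher (0.0191%). That count rested on few libraries: without PBS libraries 5 and 6, 0 genes were called, and without the 3 libraries that stood apart, 0 as well. Limma-voom and a fit of the 2 groups alone also called 0, while 1897 genes (12.1%) had an unadjusted p under 0.05 with all libraries. Squamous epithelium genes summed to 6.43 to 35.6 CPM in the anti-IL-12p40 libraries, against 5.03 to 3430 CPM in the DSS with PBS libraries; the part of such tissue in these calls was not tested. S100a9 was at 6.34, 30.5 and 122 CPM (lowest, median and highest) with the antibody, against 62.7, 683 and 1440 CPM in DSS with PBS (log2 fold change -3.75 ± 0.719, adjusted p = 0.0145); without PBS libraries 5 and 6 the change was -3.12 (adjusted p = 0.205). Il1b was at 10.4, 28.9 and 116 CPM with the antibody, against 73.4, 123 and 1010 CPM in DSS with PBS (log2 fold change -2.80 ± 0.643, adjusted p = 0.0345), and -1.14 without those libraries (adjusted p = 0.621). Neutrophil chemokines were lower with the antibody in 10 of 11, neutrophil markers in 10 of 18 and wound genes in 12 of 22, each 0 without PBS libraries 5 and 6. Their median log2 fold changes in this direct test were -2.99, -2.80 and -1.86, and -1.33, -2.19 and -1.05 without those libraries.

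Genes of interferon gamma response, T and NK cells, lymphoid chemokines, mast cells, xenobiotic metabolism and fatty acid oxidation had 0 calls in this direct test. Only 1.15% of all genes tested were called in it, so 0 calls in lists of this size lies near that share. Nlrc5 differed by -0.33 ± 0.445 on the log2 scale (adjusted p = 0.816), Ccr7 by -0.11 ± 0.383 (adjusted p = 0.939), Mcpt1 by 0.56 ± 0.617 (adjusted p = 0.759) and Sult1a1 by 0.50 ± 0.362 (adjusted p = 0.607). A p that misses the threshold does not show that the groups are alike.

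**Figure D5:**
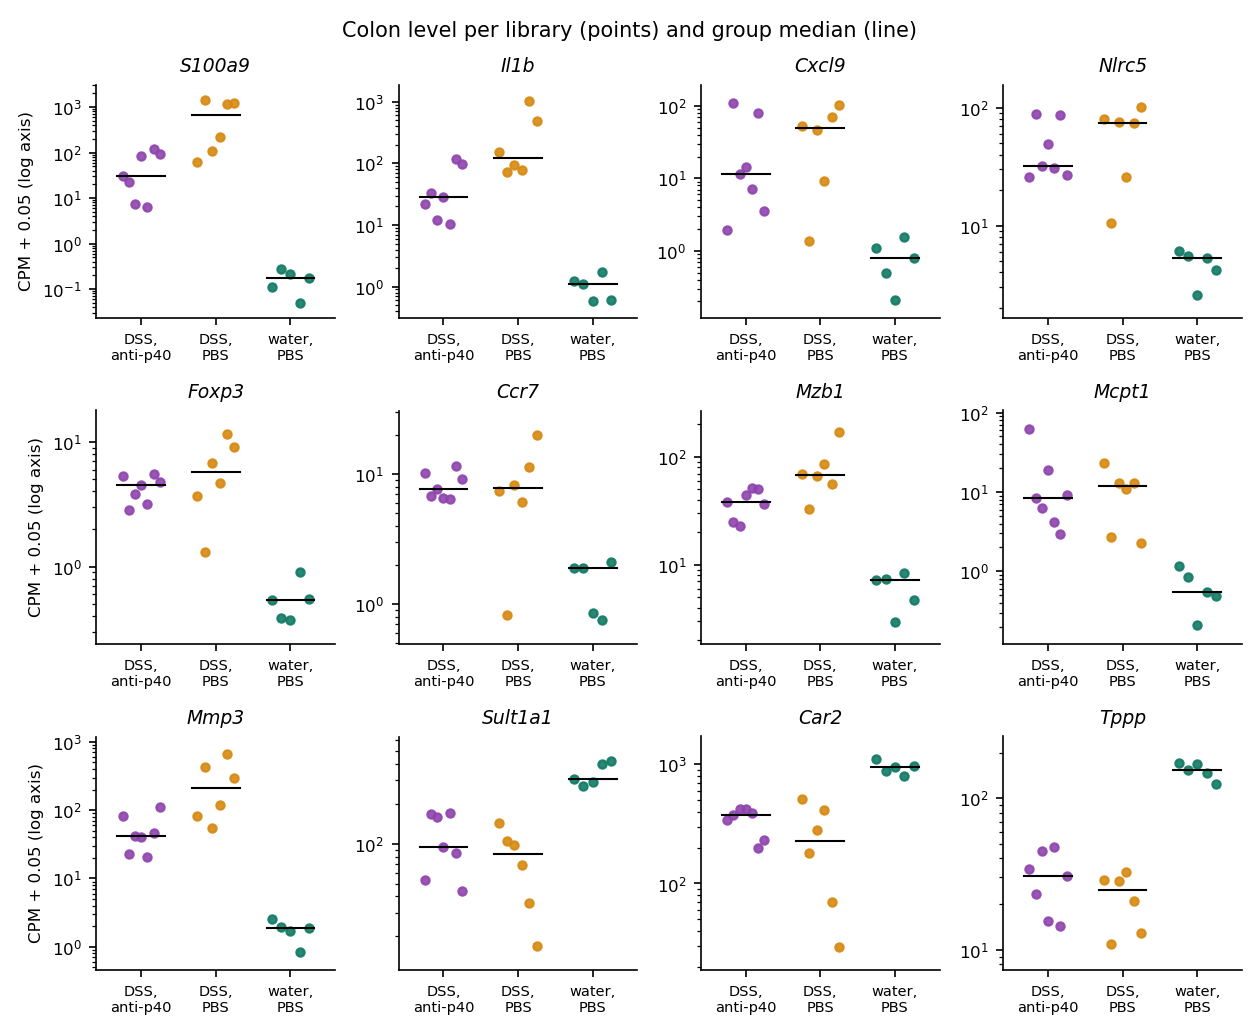
Level of 12 genes per library (points; CPM plus 0.05, log axis) with the group median as a line, in DSS with anti-IL-12p40 (7 libraries), DSS with PBS (6) and water with PBS (5). In S100a9, Il1b and Mmp3 the anti-IL-12p40 medians (30.5, 28.9 and 41.2 CPM) lie between the other groups; in Ccr7 the DSS groups have close medians (7.73 and 7.84 CPM) and in Sult1a1, Car2 and Tppp both are below water.

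Against the 8 libraries from mice given DSS with the anti-human IL-36R antibody, no gene passed: 0 of 15731 (0.0%), by edgeR, DESeq2 and limma-voom alike, with 552 genes (3.51%) at an unadjusted p under 0.05. Nlrc5 was at 25.7, 32.2 and 88.2 CPM (lowest, median and highest) with anti-IL-12p40, against 14.6, 26.2 and 74.2 CPM with anti-IL-36R. S100a9 was at 6.34, 30.5 and 122 CPM, against 10.2, 18.5 and 48.7 CPM with anti-IL-36R (log2 fold change 1.16 ± 0.626, unadjusted p = 0.0748). Tppp was at 14.3, 30.6 and 47.8 CPM, against 29.6, 48.3 and 74.1 CPM with anti-IL-36R (log2 fold change -0.73 ± 0.256, unadjusted p = 0.00839, adjusted p = 1.0). The libraries of the antibody groups overlapped in all 3 genes.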

How the data were processed

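Colon mRNA was purified with oligo-dT beads and made into strand-specific libraries, per the labels' protocols. The authors deposited expected counts per gene, made with RSEM on the mouse build mm10, per the submitters' processing notes; versions are not given in the sources used here. The members, gene lists and tests were chosen with earlier results of these data known. Expected counts, of which 16.76% were not whole, were rounded to whole numbers. All 26 colon libraries (4 groups) entered 1 edgeR 4.0.16 quasi-likelihood fit in R 4.3.3 with filterByExpr, TMM factors (0.91 to 1.09) and 22 residual degrees of freedom; genes at a Benjamini-Hochberg adjusted p under 0.05 are called changed. Standard errors are the log2 fold change divided by the root of F. The fit was also run on simulated counts, in which no library stood apart as some did here. Alternatives were DESeq2 1.42.0, its size factors, no filter, limma-voom 3.58.1, only the groups compared, and leaving out libraries. Gene IDs were matched to RefSeq GRCm38.p6 symbols for 24375 of 24475. Named genes are the 15 largest rises and 15 largest falls among called genes that changed 2-fold or more and whose mean log2 CPM was 1 or higher, up to 4 called members of each list in each direction by size, the IL-12, IL-23, IL-36 and IL-1 axis genes, and genes called against both water and DSS with PBS; others are said to be chosen after their values were seen, as were the genes that set libraries apart. Reads of paralogs such as the MHC, guanylate-binding protein and mast cell protease genes may have been split by the authors' counting. The 26 libraries held 15081670 to 18663357 counts each, and errors are those of the fit over all of them. A few genes of the lists are not reported here by name.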

Additional observations from a re-analysis of the deposited data

Results flagged for a closer look

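In each group of 4 to 10 libraries, the highest or lowest library was called far from the others when its gap to the nearest one, divided by the whole range of the group, was above Dixon's 95% critical value. Of 406 groups checked, 50 met this. Some of the genes were chosen because they set a library apart, and a single read among zeros always meets the rule. The count is therefore not to be compared with the 1 in 20 that chance gives.

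Water library 4 met it most often. Among list scores (the mean log2 CPM of the members), it was the highest water library for enteroendocrine and tuft cell genes at 4.34 (3.20 to 3.52 in the others), xenobiotic and steroid metabolism genes at 6.72 (5.36 to 5.58), fatty acid oxidation and ketone genes at 7.14 (6.25 to 6.29) and endoplasmic reticulum stress genes at 6.56 (6.07 to 6.19). It was the lowest for stratified squamous epithelium genes at -1.79 (-1.04 to -0.91). Among positional and mucosal genes, it had Hoxb13 at 1.84 CPM (364 to 400 in the others), Hoxd13 at 0.212 CPM (134 to 170), Hoxd10 at 5.66 CPM (16.6 to 20.6), Muc2 at 46400 CPM (2500 to 4100), Reg3b at 47.1 CPM (0.0 to 0.16) and Reg3g at 27.1 CPM (0.0 to 0.282). It was lowest for the transport genes Fxyd4 at 0 CPM (41.0 to 110), Slc37a2 at 2.4 CPM (289 to 951) and Slc20a1 at 76.1 CPM (543 to 888). It was highest for Ugt1a1 at 160 CPM (3.9 to 7.36), Cyp4b1 at 62.9 CPM (1.75 to 4.63), Aldh1a1 at 376 CPM (43.7 to 69.4), Ppara at 70.3 CPM (20 to 27.1), Acaa2 at 148 CPM (64.4 to 78.1) and Osr2 at 44.1 CPM (0.25 to 1.11). Muscle genes were high there too, with Mylk at 1600 CPM (818 to 916) and Ckm at 44.4 CPM (8.49 to 12.3). It was also highest for Avil at 16.2 CPM (5.91 to 7.28), Asns at 41.8 CPM (17.6 to 19.9), Pdia4 at 171 CPM (153 to 157), Sprr1a at 7.28 CPM (1.01 to 1.31), Il1rl1 at 5.8 CPM (1.67 to 2.35), Il1r2 at 1.34 CPM (0.374 to 0.494) and Saa3 at 1.77 CPM (0.394 to 0.494). In Il17a, Cxcl3 and Amy2a5 it held 0.0707 CPM, a single read, where the other water libraries held 0.

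Anti-IL-12p40 library 5 was the highest of its group for the liver genes Alb at 884 CPM (0.425 to 2.3 in the others), Fga at 72.4 CPM (0.0 to 0.187) and Fgb at 60.0 CPM (0.0 to 0.115). It was also highest for Ly6c2 at 55.8 CPM (19.9 to 28.9) and lowest for Ccl19 at 4.7 CPM (8.48 to 12.9). Anti-IL-12p40 library 2 was the highest for Amy2a5 at 103 CPM (0.0 to 1.1).

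The remaining cases were water libraries. Library 2 had the highest score of the IL-6, TNF and feedback list at 3.34 (3.14 to 3.18), library 5 the highest Spink4 at 433 CPM (121 to 155), and library 3 the lowest Cxcl10 at 0.588 CPM (1.13 to 1.42). In genes at or near 0 in water, library 1 held Serpina1c at 0.37 CPM and Stfa2l1 at 0.0617 CPM, library 2 held Clec4e and Prss22 at 0.0563 CPM each, library 3 held Krt90 at 0.0534 CPM and Mmp8 at 0.107 CPM, and library 5 held Fgb and Ms4a2 at 0.0624 CPM each, where the other water libraries held 0. Chil3 was at 0 CPM in water library 1 and at 0.0534 to 0.0707 CPM in the other 4.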

How the results depend on the processing

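Against water, the count of 2712 genes became 5028 (2591 higher, 2437 lower) by limma-voom with sample weights, and leaving out 1 library in turn gave 1995 to 2770 in all, 1363 to 1744 higher and 625 to 1026 lower, with the lowest count of lower genes without water library 1. The other alternatives kept the counts within 1.5 times. Without the 3 libraries that stood apart, an alternative chosen after seeing the data, the counts were 2855, 1748 and 1107. In DSS with PBS against water, 5073 genes became 2941 in a fit of the 2 groups alone and 2976 without PBS libraries 5 and 6, also chosen after seeing the data; leaving out 1 library gave 3990 to 5508. Between anti-IL-12p40 and DSS with PBS, the 181 genes became 355 by DESeq2 and 0 by limma-voom, by a fit of the 2 groups alone, without the 3 libraries that stood apart and without PBS libraries 5 and 6; leaving out 1 library gave 34 (without PBS library 5 or 6) to 408 (without PBS library 1). Against anti-IL-36R, the count was 0 under every alternative run.

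Of 173 named genes, 147 were called, 88 of these in all 18 alternatives and 6 in every one of the 14 to 17 that gave them a value; 26 lost the call in 1 to 5 of them and 27 in more. Log2 fold changes of 6 named genes that were called in the main fit or an alternative turned round or reached 0. Itln1 went to 1.84 by limma-voom, 0.40 without water library 4 and 0.68 without the 3 libraries. Osr2 went to 0.54 without water library 4 and 0.65 without the 3 libraries. Ugt1a1 went to 0.04 without water library 4. Alb went to -0.59 by DESeq2, -0.61 without anti-IL-12p40 library 5 and -0.98 without the 3 libraries. Fga went to 0.00 without the 3 libraries. Retnlb, which was not called in the main fit (log2 fold change -1.28, adjusted p = 0.495), went to 5.17 by limma-voom. Leaving out 1 library gave -5.24 to 0.40 for Itln1, -3.71 to 0.54 for Osr2, -3.15 to 0.04 for Ugt1a1 and -0.61 to 6.36 for Alb. Those turned round by leaving out a library rest on that library; the cause of the others was not tested. No paired analysis was possible because the labels carry only sample numbers that no groups share. Depth limits what can be said of genes at a few reads per library, such as Il17a, Il22, Ifng and Il6.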

Other observations

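Genes outside the lists were among the largest changes. Clec4e, a lectin receptor of myeloid cells, was at 1.17, 3.5 and 20.3 CPM (lowest, median and highest) in the anti-IL-12p40 libraries, against 0 CPM in 4 water libraries and 0.0563 CPM in the other (adjusted p = 0.000155). Krt90, a keratin gene, was at 0.697 to 20 CPM, against 0 CPM in 4 water libraries and 0.0534 CPM in the other (adjusted p = 0.000635), and the protease gene Prss22 was at 0.187 to 5.1 CPM, against at most 0.0563 CPM (adjusted p = 0.00944). In all 3 the groups did not overlap. Mrgpra2b was at 0 CPM in 3 anti-IL-12p40 libraries and up to 2.55 CPM in the other 4, against 0 in all water libraries (adjusted p = 0.0372); it did not pass when any 1 of 8 libraries was left out, each water library among them (adjusted p = 0.0536 to 0.074).

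Among the falls, P2ry4, a nucleotide receptor, was at 0.874 to 2.67 CPM, against 10, 8.28, 15, 3.61 and 3.81 CPM in water, without overlap (log2 fold change -2.11 ± 0.543, adjusted p = 0.00826). Smpx, a small muscle protein gene, was at 0.85 to 3.76 CPM, against 7.21 to 18.7 CPM in water (log2 fold change -2.52 ± 0.442, adjusted p = 0.000324). Sycn, the gene of syncollin, was at 45.7 to 224 CPM, against 1060, 566, 655, 125 and 823 CPM in water, with water library 4 the lowest of its group (log2 fold change -2.20 ± 0.489, adjusted p = 0.0027). Slc37a2 was at 41.1 to 174 CPM, against 652, 465, 951, 2.4 and 289 CPM in water; its log2 fold change was -2.62 ± 0.719, and -2.94 without water library 4. Fxyd4, a regulator of the sodium pump, was at 0.523 to 9.12 CPM with anti-IL-12p40, against 110, 64.3, 85.7, 0 and 41.0 CPM in water. Its log2 fold change was -3.70 ± 0.989 (adjusted p = 0.0112). In DSS with PBS it was at 2.64 to 142 CPM and did not pass against water (adjusted p = 0.437). Fxyd4 was not called in the direct test between the DSS groups. All 103 genes called both there and against water were higher than water. Those comparisons share the anti-IL-12p40 libraries, so this overlap tests nothing. Of the 181 genes called in the direct test (1.15%), 178 were lower with the antibody. Without PBS libraries 5 and 6 the direct test called 0 genes.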
